A study of Homo sapiens with 12 samples.

Results

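The genes described here are NFE2L2, which encodes the transcription factor NRF2, its repressor KEAP1, and 7 genes that NRF2 is known to switch on: NQO1, GCLC, GCLM, TXNRD1, SRXN1, HMOX1 and PGD. They were taken by symbol and mapped to Ensembl gene identifiers, which gave 9 genes of the 63677 identifiers in the deposited table. All 9 passed the filter on low reads and were among the 15464 genes tested. Reads of HCT116, an established human colorectal cancer cell line, were counted in 12 polyA RNA libraries, 3 from each of 4 genotypes. The genotypes are mCherry (a fluorescent protein, titled as the control), CR3 (the peptide that the series names as disturbing condensates), scramble and reverse. Neither the sequences of the constructs nor the way they were introduced is stated in the labels. Cells of all 4 genotypes shared a DMEM medium containing 10% FCS (fetal calf serum) and had received doxycycline, with a dose labelled 1 ug/ul and a time labelled 48 with no unit. An effect of the drug itself therefore cannot be read from these data. Nothing in the labels says whether the 3 libraries of a group came from separate cultures, so each p-value measures the spread between these libraries, which may be technical.

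NRF2 is a basic leucine zipper protein that is made all the time and destroyed almost as fast. KEAP1, a sensor rich in reactive cysteines, holds NRF2 for a CUL3 ubiquitin ligase, and oxidants or electrophiles that modify KEAP1 let newly made NRF2 reach the nucleus. There it pairs with a small MAF protein on antioxidant response elements and raises genes for quinone reduction, glutathione and thioredoxin supply, heme breakdown and NADPH production. RNA libraries measure the transcripts of these genes and not the NRF2 protein.

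The core letters of an antioxidant response element, TGACNNNGC, were searched on both strands in the 300 bases from 250 before to 50 after each RefSeq start (GRCh38.p14). Of the 9 genes, 8 had such a window, 11 windows in all because NFE2L2, KEAP1 and TXNRD1 have 2 starts each. HMOX1 had no entry. A match lay in 4 of these 8 genes, KEAP1, GCLM, TXNRD1 and PGD, against 16.1% of all 27305 genes with a window. By window, 5 of 11 held a match, against 13.3% of all 35116 windows. The letters of the 6 matches that lie wholly before the start are shown because these letters are the core that NRF2 is known to bind, each read on the strand that gives TGACNNNGC, with the match in capitals and 10 bases on either side.

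KEAP1, first base of the match -54, chr19:10502807-10502835, minus strand: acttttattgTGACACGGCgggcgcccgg
KEAP1, first base of the match -31, chr19:10502784-10502812, plus strand: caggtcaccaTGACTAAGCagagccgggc
GCLM, first base of the match -34, chr1:93909446-93909474, plus strand: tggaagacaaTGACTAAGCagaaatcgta
TXNRD1, upstream start, first base of the match -99, chr12:104215670-104215698, plus strand: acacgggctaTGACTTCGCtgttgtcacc
TXNRD1, downstream start, first base of the match -102, chr12:104286920-104286948, minus strand: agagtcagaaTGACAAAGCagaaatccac
PGD, first base of the match -201, chr1:10398853-10398881, minus strand: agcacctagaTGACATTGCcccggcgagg

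Positions count back from the start of transcription along the gene, with -1 as the last base before it. The KEAP1 site at -31 and the GCLM site share all 12 bases from the start of the match, and the site before the downstream TXNRD1 start matches each of these at 11 of the 12. Over all 29 bases the closest pair was GCLM and the downstream TXNRD1 site, alike at 19 positions. The other TXNRD1 site and the PGD site shared 6 to 8 of those 12 bases with the KEAP1 site at -31 and the GCLM site. The fixed letters of the search make every pair share at least 6 of the 12. A further match crosses the upstream TXNRD1 start and is not shown. No match to these letters was found in the windows of NFE2L2, NQO1, GCLC or SRXN1, which speaks only for these letters in these windows. A match is a description of the sequence and does not show that NRF2 was bound there.

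The part of the PGD window that lies before its RefSeq start, holds the match and overlaps no annotated exon shows the setting of that site. It lies inside the annotated gene, which has an earlier start in GENCODE, and spans 230 bases at chr1:10398814-10399043 on the plus strand, with the match in capitals on the strand of the gene.

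PGD: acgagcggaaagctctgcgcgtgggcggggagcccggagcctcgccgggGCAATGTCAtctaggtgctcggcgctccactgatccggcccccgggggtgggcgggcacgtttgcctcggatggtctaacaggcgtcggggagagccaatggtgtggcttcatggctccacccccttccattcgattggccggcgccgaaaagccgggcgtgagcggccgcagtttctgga

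Total gene reads per library ran from 17418245 to 23548381, and the median library had reads in 21830 genes. Levels are normalized reads, the reads of a gene divided by the size factor of its library. Of the markers of the labelled epithelial line, KRT8, KRT18 and KRT19 were high in every group (KRT8 at a mean of 28052 normalized reads in mCherry and 23381 in CR3). KRT20 was low, at 20.03 in mCherry and 11.5 in CR3, and VIL1, CDX1, LGALS4 and CEACAM5 were near 0 in all 4 groups. Of 12 such epithelial markers, 8 were tested, and 5 of these were lower and 0 higher in CR3 than in each other group, where 11.1% of all genes tested were lower. When libraries were scaled by library size in place of the size factors, 3 of the 8 were lower, where 5.98% of all genes were. Their summed level was 47758 to 55478 in the CR3 libraries and 58127 to 66424 in the other 9. The markers typical of neuron-like and embryonic kidney lines summed to 2541 to 2893 in the 3 CR3 libraries and to 213 to 278 in the other 9. Of 12 such markers 8 were tested. Of these, 7 were higher in CR3 than in each other group, where 10.9% of all genes were (IRS4 4.70 in mCherry and 550 in CR3, LUZP4 0 and 393). These 7 had means of at most 4.70 in the other groups. They passed the filter on low reads through the CR3 libraries alone, so they had to differ. PAX2, the other tested marker of this list, had 246 in mCherry and 239 in CR3. Of those not tested, BEX1 was near 0 in all 4 groups, and STMN2 had 0 in mCherry and 8.10 in CR3. Mesenchymal markers summed to 2932 to 3278 in CR3 and 1315 to 1693 elsewhere. Of 12 such markers 5 were tested, and 4 of these were higher, where 10.9% of all genes were. Of the 4, CDH2 was near 0 outside CR3 (1.90 in mCherry and 130 in CR3), so it too had to differ. Of the markers not tested, COL1A2, COL3A1, DCN and THY1 were near 0 in all 4 groups. COL5A1, also not tested, had 2.39 in mCherry and 147 in CR3. Blood markers summed to at most 24.6 and endothelial markers to at most 35.3 in any library, with PTPRC and PECAM1 at 0 in all 12. These marker levels move with the CR3 group in all 3 of its libraries, and their part in the results below was not tested.

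In CR3 cells the transcripts of NRF2 itself and of 4 of its 7 targets were lower than in each of the other 3 groups. NQO1 and TXNRD1 fell most, PGD, GCLC and NFE2L2 less. KEAP1 was called lower against scramble alone, and GCLM, SRXN1 and HMOX1 were called in no comparison. Calls are those of limma on log2(normalized reads + 1) with the 4 groups in 1 model, at a Benjamini-Hochberg adjusted p under 0.05 over all genes tested. The 3 comparisons of CR3 share the CR3 libraries and so are not independent of each other.

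Read against the whole table, CR3 against mCherry called 5 of the 9 genes lower, where 14.5% of all genes tested were lower, and 0 higher, where 14.0% were higher. Against scramble 6 were lower and 0 higher, with 18.6% and 19.0% of all genes. Against reverse 5 were lower and 0 higher, with 16.6% and 16.9%. At an unadjusted limma p under 0.05 no gene of the 9 was higher either, and limma-voom called 0 higher. The median log2 difference of the 9 genes was -0.20, -0.21 and -0.23 in the 3 comparisons, beside 0.00, 0.01 and 0.01 over all genes tested. A fall of this size was not particular to the 9 genes. The 8 tested epithelial markers had medians of -0.28, -0.28 and -0.23. NFE2L2, NQO1, GCLC, TXNRD1 and PGD were called lower against all 3 groups, 5 of 9 where 11.1% of all genes were. The same 5 had CR3 libraries below all 9 others, where 13.4% of all genes did. With scaling by library size in place of the size factors, 3 of 9 (NQO1, TXNRD1 and PGD) were lower against all 3 groups and 0 higher, where 5.98% and 17.8% of all genes were. That scaling raised the median of all genes to 0.09, 0.10 and 0.09 in the 3 comparisons, and the share of higher genes among those called from 49.2% to 73.8% against mCherry, from 50.5% to 71.3% against scramble and from 50.3% to 72.5% against reverse. The shares of all genes are not matched for expression level. With the size factors and a filter of 100 reads, 40.4%, 42.4% and 42.2% of the genes called in these comparisons were higher.

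**Figure D1:**
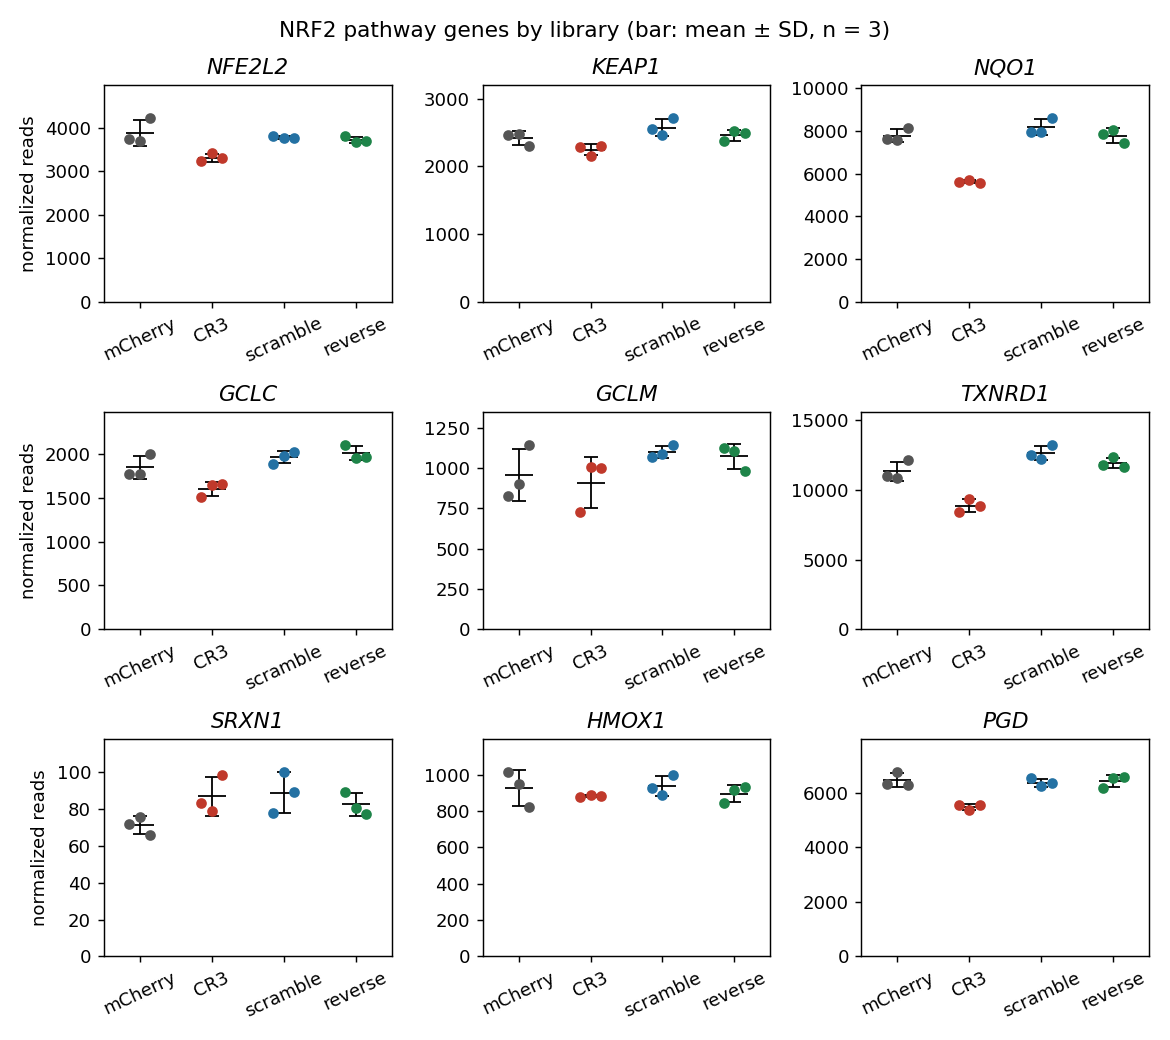
Normalized reads (vertical axes, from 0) of the 9 genes in each of the 12 libraries, 1 point per library, by group, with the mean and SD of 3 libraries as bars. The CR3 points of NFE2L2, NQO1, GCLC, TXNRD1 and PGD lie below all 9 other points, and those of KEAP1, GCLM, SRXN1 and HMOX1 mix with some of them.

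NFE2L2 (ENSG00000116044, chr2:177227595-177392697, minus strand, GRCh38), the gene for NRF2, had 3232, 3417 and 3297 normalized reads in the 3 CR3 libraries. The mCherry libraries had 3734, 3688 and 4225, the scramble libraries 3814, 3767 and 3763, and the reverse libraries 3802, 3665 and 3694. Every CR3 library was below every other library, with mCherry library 3 standing highest. NFE2L2 fell by 0.23 against mCherry on the log2 scale (SE 0.05, adjusted p = 0.0024 by limma with Benjamini-Hochberg adjustment). Against scramble it fell by 0.19 (limma, adjusted p = 0.00596), and against reverse by 0.17 (limma, adjusted p = 0.0157). The CR3 mean was 85.4% to 89.1% of that in the other groups. With scaling by library size in place of the size factors the difference from mCherry was -0.14 (limma adjusted p = 0.0473). The calls against scramble and reverse were lost with that scaling (-0.10 with adjusted p = 0.127 and -0.08 with adjusted p = 0.236, limma). The call against reverse was also lost without CR3 library 1 (adjusted p = 0.0577), CR3 library 3 (0.0511) or reverse library 1 (0.0603). A transcript annotated on the same strand, AC019080.1, shares 1054 exon bases with NFE2L2 and had 29 to 59 reads per library.

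KEAP1 (ENSG00000079999, chr19:10486120-10503741, minus strand), the sensor that directs NRF2 to degradation, had 2283, 2152 and 2305 normalized reads in CR3. The mCherry libraries had 2464, 2486 and 2300, the scramble libraries 2546, 2460 and 2715, and the reverse libraries 2372, 2524 and 2492. The CR3 libraries lay below those of scramble and reverse, and the lowest mCherry library fell just under the highest CR3 library. KEAP1 fell by 0.20 against scramble (SE 0.05, limma adjusted p = 0.0058). Against mCherry the difference was -0.10 with a 95% interval of -0.21 to 0.00 (limma adjusted p = 0.14), and against reverse -0.13 with an interval of -0.24 to -0.02 (limma adjusted p = 0.0546). Scaling by library size left differences of -0.02 from mCherry (adjusted p = 0.836) and -0.04 from reverse (adjusted p = 0.511), and the call against scramble was lost (-0.10, adjusted p = 0.102), and the difference from reverse was called without reverse library 1 (-0.16, adjusted p = 0.048). The ratio of NFE2L2 to KEAP1 in normalized reads per kb of exon was 0.89 to 1.00 in CR3 and 0.93 to 1.16 in mCherry. It was 0.87 to 0.96 in scramble and 0.91 to 1.01 in reverse, and these ranges overlap.

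NQO1 (ENSG00000181019, chr16:69706996-69726951, minus strand) encodes the quinone reductase most often used as a readout of NRF2. It had 5624, 5711 and 5575 normalized reads in CR3, against 7629, 7573 and 8132 in mCherry. The scramble libraries had 7962, 7949 and 8608, and the reverse libraries 7880, 8064 and 7424. The 3 CR3 libraries stood close together and far below the other 9, whose lowest was a reverse library. NQO1 fell by 0.46 against mCherry (SE 0.05), by 0.53 against scramble and by 0.47 against reverse on the log2 scale, with adjusted p of 7.6e-07, 1.2e-07 and 6.6e-07 by limma. This is 72.5%, 69.0% and 72.4% of the level in the 3 groups. Over all 17 alternative analyses of each comparison, the fitted differences of NQO1 stayed between -0.55 and -0.37 and were called each time. NQO1 fell further than NFE2L2 in proportion. Their ratio in normalized reads per kb of exon was 3.07 to 3.20 in CR3 and 3.54 to 4.20 in the other 9 libraries.

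GCLC (ENSG00000001084, chr6:53497341-53616970, minus strand), the catalytic subunit of the enzyme that makes the first and limiting step of glutathione synthesis, had 1513, 1653 and 1657 normalized reads in CR3. The mCherry libraries had 1772, 1779 and 2000, the scramble libraries 1889, 1982 and 2027, and the reverse libraries 2105, 1963 and 1970. The CR3 libraries were again the lowest of the 12, with CR3 library 1 at the bottom. GCLC fell by 0.20 against mCherry (SE 0.06, limma adjusted p = 0.0139), by 0.29 against scramble (limma adjusted p = 0.000713) and by 0.32 against reverse (limma adjusted p = 0.000307). The call against mCherry was the fragile one of the 3. It was lost without mCherry library 3 (-0.14, adjusted p = 0.0557), without CR3 library 1 (-0.16, adjusted p = 0.0679), with scaling by library size (-0.11, adjusted p = 0.157) and when the other 2 groups were left out of the model (-0.20, adjusted p = 0.0591).

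GCLM (ENSG00000023909, chr1:93885205-93909456, minus strand), the modifier subunit that makes GCLC more efficient, had 725, 1007 and 998 normalized reads in CR3 and 828, 899 and 1142 in mCherry. The scramble libraries had 1071, 1085 and 1141, and the reverse libraries 1126, 1106 and 983. Libraries of the CR3 and mCherry groups were spread widely and overlapped, while all 3 CR3 libraries were below all 3 of scramble. The differences were -0.07 against mCherry (95% interval -0.32 to 0.17, limma adjusted p = 0.688), -0.29 against scramble (-0.54 to -0.04, adjusted p = 0.0638) and -0.25 against reverse (-0.50 to 0.00, adjusted p = 0.114), none called. With scaling by library size the difference from mCherry changed sign to 0.01. The difference from scramble was called without CR3 library 2 (-0.37, adjusted p = 0.0386), with a filter of 100 reads (adjusted p = 0.0495) and with limma-voom (adjusted p = 0.042). Per kb of exon, the ratio of GCLM to GCLC reads was 0.76 to 0.97 in CR3 and 0.75 to 0.91 in the other 9 libraries. These ranges overlap. The intervals for GCLM were the widest of any gene here but SRXN1, and leave room for a decrease as large as that of GCLC.

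TXNRD1 (ENSG00000198431, chr12:104215779-104350305, plus strand), the cytosolic reductase that recharges thioredoxin with electrons from NADPH, had 8414, 9327 and 8852 normalized reads in CR3. The mCherry libraries had 10996, 10867 and 12147, the scramble libraries 12531, 12210 and 13220, and the reverse libraries 11831, 12369 and 11652. The highest CR3 library was well below the lowest of the others, and scramble stood above mCherry with no overlap. TXNRD1 fell by 0.35 against mCherry (SE 0.05, limma adjusted p = 6.7e-05), by 0.51 against scramble (limma adjusted p = 7.8e-07) and by 0.43 against reverse (limma adjusted p = 6.7e-06). Like NQO1 it was called in all 17 alternatives of each comparison, between -0.55 and -0.27. The 2 TXNRD1 starts cannot be told apart in a table of reads per gene.

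SRXN1 (ENSG00000271303, chr20:646615-653370, minus strand), which repairs overoxidised peroxiredoxins, was the scarcest of the genes. Its normalized reads were 83.1, 78.9 and 98.8 in CR3, 72.1, 75.7 and 66.1 in mCherry, 77.7, 100.03 and 89.4 in scramble and 89.6, 80.8 and 77.4 in reverse. The mCherry libraries were the 3 lowest of the 12, and the other groups overlapped. The difference of CR3 was 0.28 from mCherry (95% interval -0.04 to 0.60), -0.03 from scramble (-0.35 to 0.29) and 0.07 from reverse (-0.25 to 0.39), with limma adjusted p of 0.192, 0.89 and 0.762. The difference from scramble turned positive with scaling by library size (0.06). A second annotated gene, AL121758.1, shares 2292 exon bases with SRXN1 on the same strand and was listed with 0 reads in all 12 libraries. How the counting treated reads on shared exons is not stated in the labels, so the SRXN1 level may hold only part of its reads. The decrease fitted for TXNRD1 lay below all 3 intervals of SRXN1. Per kb of exon, the ratio of TXNRD1 to SRXN1 reads was 36.0 to 47.5 in CR3 and 49.1 to 73.9 in the other 9 libraries.

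HMOX1 (ENSG00000100292, chr22:35380361-35394214, plus strand) encodes the inducible heme oxygenase and answers to BACH1, which competes with NRF2 for its elements, as well as to NRF2. It had 878, 887 and 885 normalized reads in CR3, 1014, 950 and 821 in mCherry, 927, 887 and 998 in scramble and 843, 918 and 932 in reverse. The CR3 libraries were nearly identical and sat inside the range of mCherry and of reverse, and just under scramble. The differences were -0.07 from mCherry (95% interval -0.22 to 0.09), -0.08 from scramble (-0.24 to 0.07) and -0.02 from reverse (-0.18 to 0.13), with limma adjusted p of 0.546, 0.397 and 0.853. All 3 turned positive with scaling by library size, at 0.02, 0.01 and 0.07. The intervals exclude a decrease of the size fitted for NQO1. Per kb of exon, the ratio of NQO1 to HMOX1 reads was 4.65 to 4.76 in CR3 and 5.56 to 7.32 elsewhere.

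PGD (ENSG00000142657, chr1:10398592-10420144, plus strand), the second NADPH-producing enzyme of the pentose phosphate pathway, had 5560, 5361 and 5537 normalized reads in CR3. The mCherry libraries had 6316, 6744 and 6287, the scramble libraries 6526, 6241 and 6337, and the reverse libraries 6188, 6525 and 6578. All 3 CR3 libraries were below the other 9, which did not separate from each other. PGD fell by 0.23 against mCherry (SE 0.04, limma adjusted p = 0.000538), by 0.21 against scramble (limma adjusted p = 0.000778) and by 0.23 against reverse (limma adjusted p = 0.000521). It was called in all 17 alternatives of each comparison, between -0.26 and -0.12, with the smallest differences from scaling by library size (-0.14, -0.12 and -0.14 against mCherry, scramble and reverse). Its pseudogene PGDP1 had at most 2 reads in any library.

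**Figure D2:**
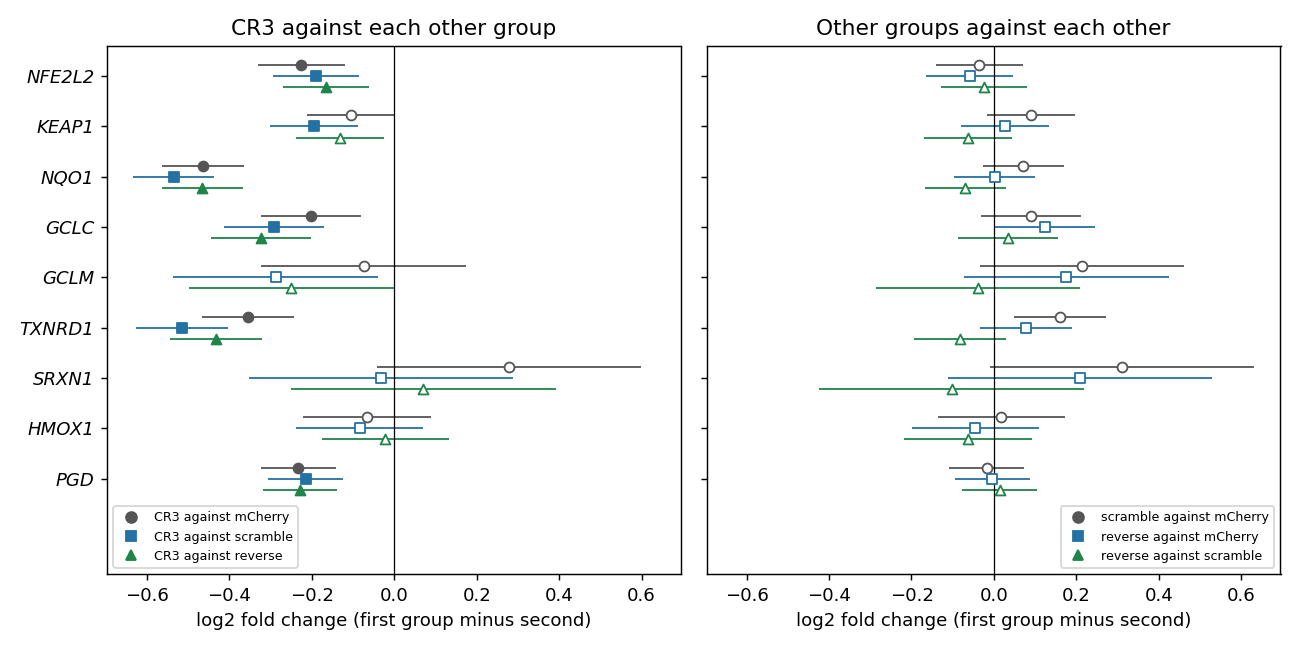
Log2 fold change (horizontal axes, first group minus second) of each gene with its 95% interval from limma, for CR3 against each other group (left) and for the other groups among themselves (right). Filled points passed an adjusted p of 0.05. Filled points appear only in the left panel and all lie below 0, from -0.53 for NQO1 against scramble to -0.17 for NFE2L2 against reverse.

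Among the other 3 groups no gene of the 9 was called. Scramble against mCherry called 0 of 9 by limma (1.53% of all genes in either direction), reverse against mCherry 0 (0.666%) and reverse against scramble 0 (0.491%). At an unadjusted p under 0.05 the counts were 1, 1 and 0, the genes being TXNRD1 in the first and GCLC in the second. limma-voom called 0 in all 3. TXNRD1 was 0.16 higher in scramble than in mCherry (95% interval 0.05 to 0.27, limma adjusted p = 0.155), and this passed without mCherry library 3 (0.21, adjusted p = 0.0279). GCLC was 0.12 higher in reverse than in mCherry (0.00 to 0.24, limma adjusted p = 0.523). mCherry library 3 was the highest of its group for NFE2L2, NQO1, GCLC, GCLM and TXNRD1 and the lowest for KEAP1, SRXN1, HMOX1 and PGD.

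**Figure D3:**
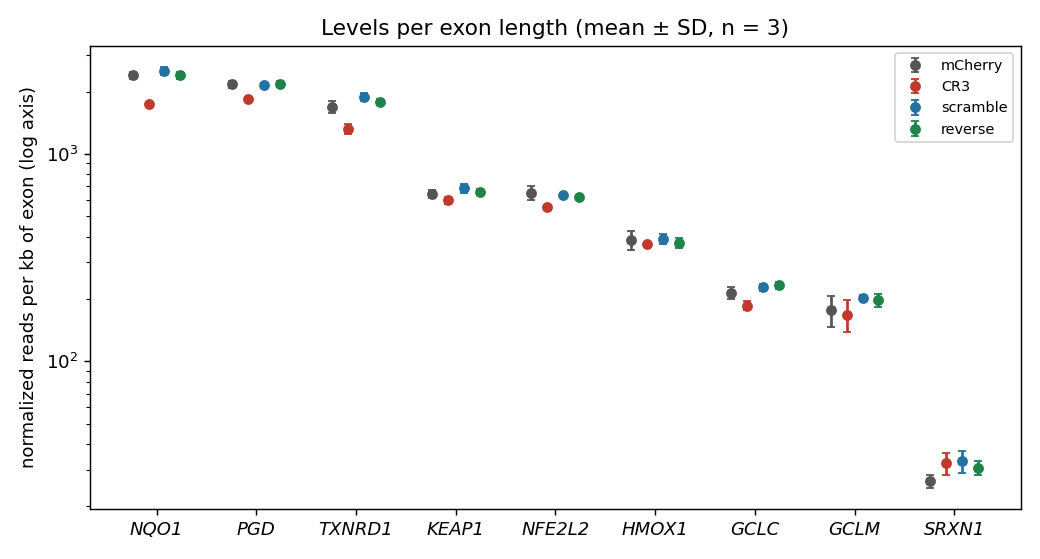
Normalized reads per kb of exon (vertical axis, log scale) of the 9 genes in each group, as mean and SD of 3 libraries. NQO1, PGD and TXNRD1 stand highest and SRXN1 lowest in all 4 groups.

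Per kb of exon, the scale on which genes can be set beside each other, the enzymes that move electrons were the most abundant. In mCherry NQO1 had 2390 ± 94.5 normalized reads per kb (SD, n = 3), PGD 2174 ± 86.3 and TXNRD1 1690 ± 105. NFE2L2 and KEAP1 followed at 649 ± 49.8 and 643 ± 27.0, a pair that did not differ beyond their spread. HMOX1 was at 386 ± 40.8. GCLC at 214 ± 15.04 and GCLM at 176 ± 30.3 were neighbours with overlapping spreads, and SRXN1 was last at 26.4 ± 1.79. In CR3 PGD (1850 ± 36.6) stood above NQO1 (1732 ± 21.3), the reverse of their order in the other 3 groups. KEAP1 stood above NFE2L2 in CR3 (597 ± 22.1 and 555 ± 15.6), as it did in scramble and reverse. Exon length was the union of all annotated exons, so a gene with long unused isoforms reads low on this scale.

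Across the 12 libraries NQO1 ran most closely with TXNRD1 (Pearson r = 0.97 on log2 values), then with GCLC (0.88), PGD (0.88) and NFE2L2 (0.87). Its correlations were weaker with GCLM (0.56), HMOX1 (0.26) and SRXN1 (-0.21). NFE2L2 and KEAP1 had r = 0.39. These values describe 12 libraries of which the 3 of CR3 stand apart, and they carry no test. Among 11030 genes with a symbol and a mean of at least 100 normalized reads, the 3 most like NQO1 were YWHAG (0.99), ANP32A (0.99) and ANXA1 (0.99). Those most like NFE2L2 were FAM98B (0.98), TBCA (0.97) and RDX (0.97), and those like KEAP1 included PUF60 (0.97) and PSMD3 (0.965). None of the 9 NRF2 pathway genes was among these nearest genes.

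Over 8 lists of related genes, 131 different genes were tested, of which 27 (20.6%) were called lower and 12 (9.16%) higher in CR3 than in each other group, beside 11.1% and 10.9% of all genes. The share that was higher is thus near that of all genes. Of the 12 that were higher, 7 had means under 10 normalized reads in all 3 other groups and passed the filter on low reads through the CR3 libraries alone, so they had to differ. The lower genes were well expressed throughout, with at least 330 normalized reads in mCherry. The shares of all genes are not matched for level, and with the filter of 100 reads calls leaned towards lower, as given above. When scaled by library size, 21 were lower and 23 higher, beside 5.98% and 17.8% of all genes. The genes that are named below for these lists kept their call under that scaling, except SOD2 and PARK7.

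Of the 27 tested regulators, partners and relatives of NRF2, 0 were lower and 1 was higher against all 3 groups. That gene was BTRC, the F-box protein that can send NRF2 to degradation without KEAP1, at 1990 ± 59.1 normalized reads in CR3 and 1708 ± 26.8 in mCherry. It rose by 0.22 against mCherry (limma adjusted p = 0.0013). The median of this list against mCherry was -0.02. BACH1, CUL3, MAFF, MAFG and MAFK, whose products repress, degrade or partner NRF2, were not called against all 3 groups. With scaling by library size MAFF and CHD6 joined BTRC.

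The glutathione system, apart from GCLC and GCLM, had 6 genes lower and 4 higher of 26 tested, with a median of -0.01 against mCherry, and 5 lower and 6 higher with scaling by library size. GSR, which regenerates glutathione with NADPH, had 3616 ± 45.9 normalized reads in CR3 and 4761 ± 137 in mCherry. MGST1, a membrane-bound glutathione transferase, had 1527 ± 29.8 and 2063 ± 81.2. Both fell against all 3 groups. On the other side stood GPX3, a secreted glutathione peroxidase, with 563 reads in the 3 CR3 libraries together and 1, 0 and 2 in mCherry, scramble and reverse. GSTM3, a cytosolic glutathione transferase, had 506 reads in CR3 and 1, 0 and 1 elsewhere.

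The thioredoxin and peroxiredoxin system had 4 lower and 2 higher of 14 tested, with a median of -0.07 against mCherry, and 2 lower and 3 higher with scaling by library size. PRDX1, an abundant peroxiredoxin, fell from 20366 ± 330 in mCherry to 16239 ± 389 in CR3, and TXN, thioredoxin itself, from 4570 ± 101 to 3895 ± 181. SESN2 and SESN1, sestrins known as stress-induced regulators of mTORC1, rose from 506 ± 18.9 to 878 ± 62.2 and from 400 ± 32.6 to 553 ± 23.3. Among the genes of NADPH supply, 5 were lower and 1 higher of 16 tested, with a median of -0.16. Scaling by library size gave 5 lower and 2 higher. MTHFD2 and MTHFD1, enzymes of folate-linked one-carbon metabolism, fell from 4579 ± 220 to 3599 ± 205 and from 3740 ± 66.2 to 3118 ± 90.2. ME1, the cytosolic malic enzyme, fell from 3771 ± 190 to 3084 ± 89.2. NNT, the mitochondrial transhydrogenase, was the gene that rose with the size factors. It had 844 reads in the CR3 libraries together and 5, 5 and 3 in mCherry, scramble and reverse.

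Heme and iron genes had 4 lower and 1 higher of 10 tested, with a median of -0.22. Scaling by library size gave 3 lower and 1 higher. TFRC, the transferrin receptor, fell from 6805 ± 283 in mCherry to 4976 ± 248 in CR3. The ferritin chains FTH1 and FTL fell from 20132 ± 454 to 16238 ± 432 and from 23140.0 ± 926 to 18235 ± 796. SLC40A1, the iron exporter ferroportin, had 81 reads in the CR3 libraries together and 0 in the other 9. Genes of drug and carbonyl detoxification had 3 lower and 2 higher of 19 tested, with a median of -0.06. Under that scaling 3 were lower and 3 higher. The export pumps ABCC2 and ABCC3 fell from 2495 ± 32.8 to 1431 ± 50.5 and from 330 ± 30.1 to 181 ± 13.4. CBR1, a carbonyl reductase, had 637 reads in CR3 and 5, 4 and 1 elsewhere, and ALDH1A1, a retinal dehydrogenase, 54 and 4, 2 and 5.

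Among other genes often used as readouts of NRF2, 4 were lower and 1 higher of 15 tested, with a median of -0.11. With scaling by library size 4 were lower and 3 higher. PIR, an iron-binding nuclear protein, fell from 745 ± 33.8 to 549 ± 40.6, and NAMPT, of NAD synthesis, from 1922 ± 140 to 1601 ± 99.0. ME1, given above, is also in this list. CABYR had 148 reads in CR3 and 7, 10 and 9 elsewhere. Antioxidant enzymes that are not usually counted as NRF2 targets had 3 lower and 0 higher of 8 tested, with a median of -0.07, and 1 lower (SOD1) and 2 higher (MSRB2 and MSRB3) with scaling by library size. SOD1 and SOD2, the cytosolic and mitochondrial superoxide dismutases, fell from 6718 ± 83.2 to 5627 ± 76.6 and from 2239 ± 86.4 to 1976 ± 38.1, and PARK7 from 4570 ± 121 to 4190 ± 152. GPX3, GSTM3, NNT, SLC40A1, CBR1, ALDH1A1 and CABYR were the 7 genes near 0 outside CR3. The 7 embryonic kidney and neuron-like markers called higher were also near 0 there, while PAX2, the other tested marker of that list, had 246 normalized reads in mCherry and 239 in CR3.

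**Figure D4:**
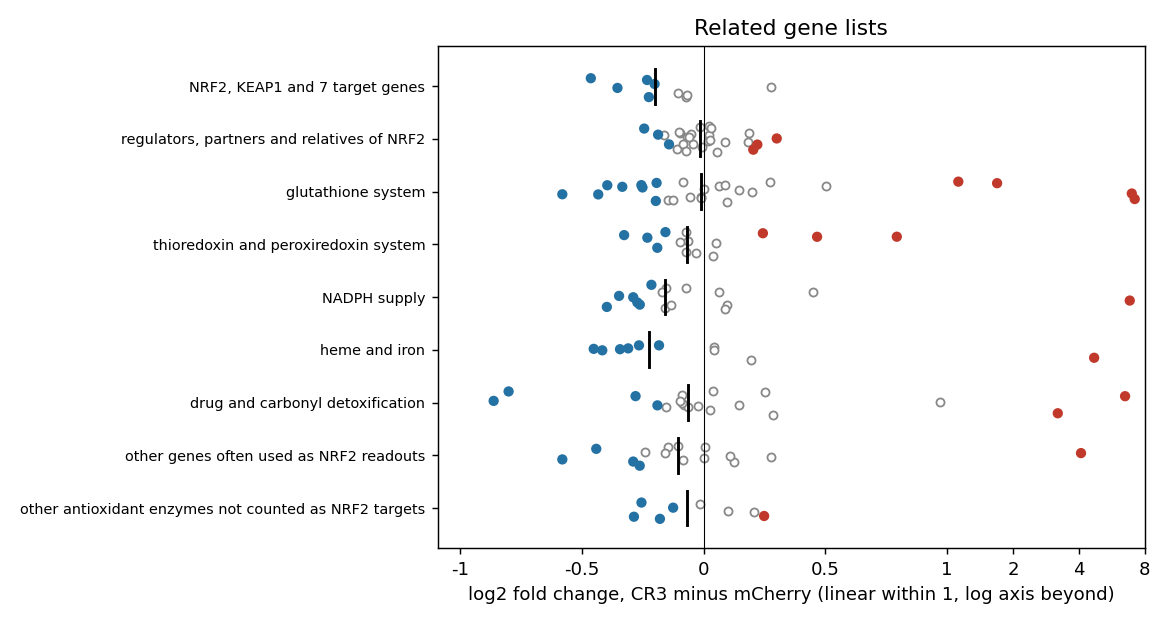
Log2 fold change of CR3 against mCherry (horizontal axis, linear between -1 and 1 and logarithmic beyond) for the 9 genes and for the tested genes of the 8 related lists, 1 point per gene. Blue points were called lower, red higher and open points not called, and black bars are medians. The 9 genes have a median of -0.20, below those of every list but heme and iron (-0.22), and points beyond 2 are genes near 0 in mCherry, whose fitted change depends on the pseudocount.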

How the data were processed

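Reads of polyA RNA from 12 libraries of HCT116 cells, 3 per genotype, were analysed from 1 table of 63677 Ensembl identifiers. The authors deposited gene counts after division by a size factor for each library (another unit than raw counts, found from the values), and the decimal mark was missing from values of 1 or more. Per the submitters' processing notes the build was GRCh38 and the tools included STAR, featureCounts and DESeq2, with FastQC, MultiQC, Trim Galore, Salmon, GATK and edgeR also listed. Their versions, the annotation and the strand setting are not stated there, so reads of overlapping and antisense genes are uncertain.

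Each of the 265152 values above 0 was a whole multiple of the worth of 1 read of its library at some power of 10 (tolerance 1e-07). The power was chosen per gene by likelihood with the group labels. It was ambiguous (likelihood ratio under 20) in 1929 values, and genes with such a value were left out. Values that had kept their mark were read correctly in 97.8% of cases with the mark hidden. All of these were values of 1 read, so this check does not cover genes with more reads. All 108 values of the 9 genes were unambiguous and came out the same without group labels. The filter asked for 10 or more reads in 3 or more libraries. That kept 16179, of which 715 were ambiguous and 15464 were tested.

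Tests were made with limma 3.58.1 in R 4.3.3, using its mean-variance trend and log2(normalized reads + 1), so that fold changes of low genes are understated. A model of the 4 groups was fitted to all 12 libraries, two-sided, with Benjamini-Hochberg adjustment per comparison and calls under 0.05. A log-scale test was chosen because the values are not counts as deposited, although whole reads were restored from them. Limma-voom on the restored reads was among the alternatives. Within each group the libraries differed beyond sampling error (chi-square per degree of freedom 2.7 to 9.54), so each counted as 1 sample. The steps were also run on simulated data with known changes, at a spread that was set and not taken from these libraries. There 18.0% of 50 log2 changes of 0.25 were called with the right sign, 89.6% of 48 changes of 0.5 and 100% of 50 changes of 1. Of unchanged genes, 0.052% were called. A difference of about 0.25 can therefore be real and yet not called. Python 3.11.15 was used for the rest, with pandas 2.3.3, numpy 2.4.6, matplotlib 3.10.9 and scipy 1.17.1.

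Gene models came from GENCODE release 29 on GRCh38 and promoter sequences from RefSeq (GRCh38.p14). The 9 genes, the 8 lists and the marker lists were chosen with earlier results of these data known. All 9 genes are named, with up to 4 genes per list, those called against all 3 groups in 1 direction with the smallest p against mCherry, and the 3 genes most correlated with NFE2L2, KEAP1 and NQO1, of which 1 is not reported here. MAFF, MAFG, MAFK, CUL3, BACH1 and CHD6 were named after their values were seen. Alternatives were other scalings, pseudocounts (0.5 and 5), filters (1 read, 100 reads), limma-voom, ambiguous genes kept, marks restored without groups, 2 groups alone, a replicate block and each library left out.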

Additional observations from a re-analysis of the deposited data

How the results depend on the processing

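The counts of the 9 genes called in each comparison stayed within 1.5 times under all alternatives, except that leaving out 1 library each time gave 0 to 1 genes called higher in scramble than in mCherry, the 1 being TXNRD1 without mCherry library 3. Of 272 alternative values of called genes, 262 kept direction and call, 10 kept direction but lost the call (named beside the gene), and 0 changed sign. With scaling by library size, sign changes were in uncalled genes: GCLM 0.0146 and HMOX1 0.0222 against mCherry, SRXN1 0.0577 and HMOX1 0.007 against scramble, and HMOX1 0.0662 against reverse. With scaling by upper quartile they were SRXN1 0.0007 against scramble and HMOX1 0.005 against reverse.

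Leaving out 1 library each time, other sign changes were again in uncalled differences near 0. In CR3 the range was -0.171 to 0.0816 for GCLM against mCherry, -0.127 to 0.0542 for SRXN1 against scramble, -0.0243 to 0.136 for SRXN1 against reverse and -0.0662 to 0.0063 for HMOX1 against reverse. For scramble against mCherry it was -0.0709 to 0.0272 for NFE2L2, -0.068 to 0.0839 for HMOX1 and -0.0358 to 0.0149 for PGD. For reverse against mCherry it was -0.0946 to 0.0035 for NFE2L2, -0.0078 to 0.0541 for KEAP1, -0.0234 to 0.0362 for NQO1, -0.131 to 0.0211 for HMOX1 and -0.022 to 0.0286 for PGD. For reverse against scramble it was -0.0754 to 0.0223 for GCLM and -0.0029 to 0.0412 for PGD. The cause was not tested. SRXN1 had no value with the filter of 100 reads.

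No sign was seen that the replicate numbers in the titles pair the libraries, though this check cannot show that no libraries shared a batch. Same-numbered libraries of different groups had correlations of -0.12 to 0.06 in their deviations from the group means, 0 of 18 pairs over 0.1. Pairs with unlike numbers ran from -0.20 (mCherry 3 with CR3 1) to 0.19 (mCherry 3 with CR3 2). With the replicate number as a block, CR3 called 5, 6 and 5 of the 9 genes lower and 0 higher against mCherry, scramble and reverse, and the other comparisons called 0. Marker sums of the embryonic kidney and neuron-like list and of the mesenchymal list were higher in all 3 CR3 libraries. No alternative here leaves that difference out. With 62 to 107 reads a library, SRXN1 is the gene that depth limits most.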
